A study of Mus musculus with 6 samples.

Results

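Ligand-sensing transcription factors were examined in regulatory T cells (Tregs) sorted from mouse colon tumours. The set comprised the nuclear receptors Rora, Vdr, Rara, Rxra, Nr3c1, Pparg and Nr1h2, the aryl hydrocarbon receptor gene Ahr, and Ahrr and Cyp1a1, both targets of Ahr. The genes were chosen by name and each was read from the array row that the platform annotation gives its symbol. Of the 10 genes, 9 had such a row, among 19494 genes in all. Nr1h2, which encodes the oxysterol receptor LXR beta, was not analysed here.

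All mice carried a Foxp3-RFP and a GPR15-GFP reporter, and tumours followed the carcinogen azoxymethane and the colitis-inducing agent dextran sulfate sodium. Foxp3 encodes the lineage-defining factor of Tregs, and GPR15 is a colon-homing receptor of T cells. From the tumorous colonic lamina propria, CD4-stained RFP+ cells were split by sorting into a GPR15-GFP+ fraction and a GPR15-GFP- fraction, with 3 one-colour Affymetrix arrays each, numbered 1, 5 and 6 in both. Ages are not given, nor whether a number marks an animal or a pool, so the p-values speak for the spread among these 6 samples, which may be technical.

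Nuclear receptors are transcription factors that a small, fat-soluble molecule switches on or off. RARα, RXRα, VDR, PPARγ and the glucocorticoid receptor answer to retinoic acid, rexinoids, active vitamin D, fatty acids and corticosteroids. RXRα is the partner with which VDR, RARα, PPARγ and the LXRs bind DNA, while RORα binds as a monomer and interacts with sterols. AHR belongs to another family, with a PAS domain, and senses dietary indoles, tryptophan metabolites and pollutants. With its partner ARNT it binds the core letters GCGTG in DNA. In the gut, retinoic acid promotes homing of T cells and Treg formation, and AHR is abundant in intestinal Tregs.

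Several facts of the arrays bear on all values below. Values are deposited log2 intensities, with medians between 6.49 and 6.64 on the 6 arrays. The arrays numbered 1 had a narrower spread of values (SD 1.63 on both) than the other 4 (SD 1.74 to 1.87). Gpr15 itself differed by -0.65 ± 0.22 (SE), lower in samples labelled GPR15+, without overlap between fractions, and did not pass (limma adjusted p = 0.773). That direction is opposite to the label, but where the probes of Gpr15 sit relative to the GFP insertion is not given, so the row may check nothing about the labels. Every direction below rests on the labels alone. Of 14 T cell markers measured, 13 were brighter than the median gene, and Il2ra, which encodes CD25, lay at the 20.0 percentile of mean level. Cd4 had a mean of 9.44 in samples labelled GPR15+ and 9.30 in the others, and Ptprc, which encodes CD45, had means of 11.6 and 11.5. Foxp3 was not analysed here. All genes had a median difference of -0.06, and 59.2% lay below 0. Of 19494 genes, limma called 0 after adjustment (0%) and 1214 at an unadjusted p under 0.05 (6.23%; 3.44% lower and 2.79% higher in samples labelled GPR15+). Each difference below is the mean of samples labelled GPR15+ less the mean of those labelled GPR15-, on the log2 scale.

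None of the 9 genes passed when adjusted over all genes (limma adjusted p from 0.773 to 0.999). Of these genes, 6 lay lower and 3 higher in samples labelled GPR15+, and the median of the 9 differences was -0.18. Rora was the gene among them whose fractions did not overlap, 1 of 9 against 13.3% of all genes. It was also the 1 gene of 9 at an unadjusted p under 0.05, against 6.23% of all genes, so these shares are near the background. With the replicate number as a block it was likewise 1 of 9, against 12.4% of all genes. In 3 genes the sign was the same in all 3 numbers, Rora and Vdr below 0 and Rara above it, as it was in 37% of all genes. The genes Rxra, Pparg and Ahrr lay above 0 in number 1 and below 0 in numbers 5 and 6, as did 18.8% of all genes.

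**Figure D1:**
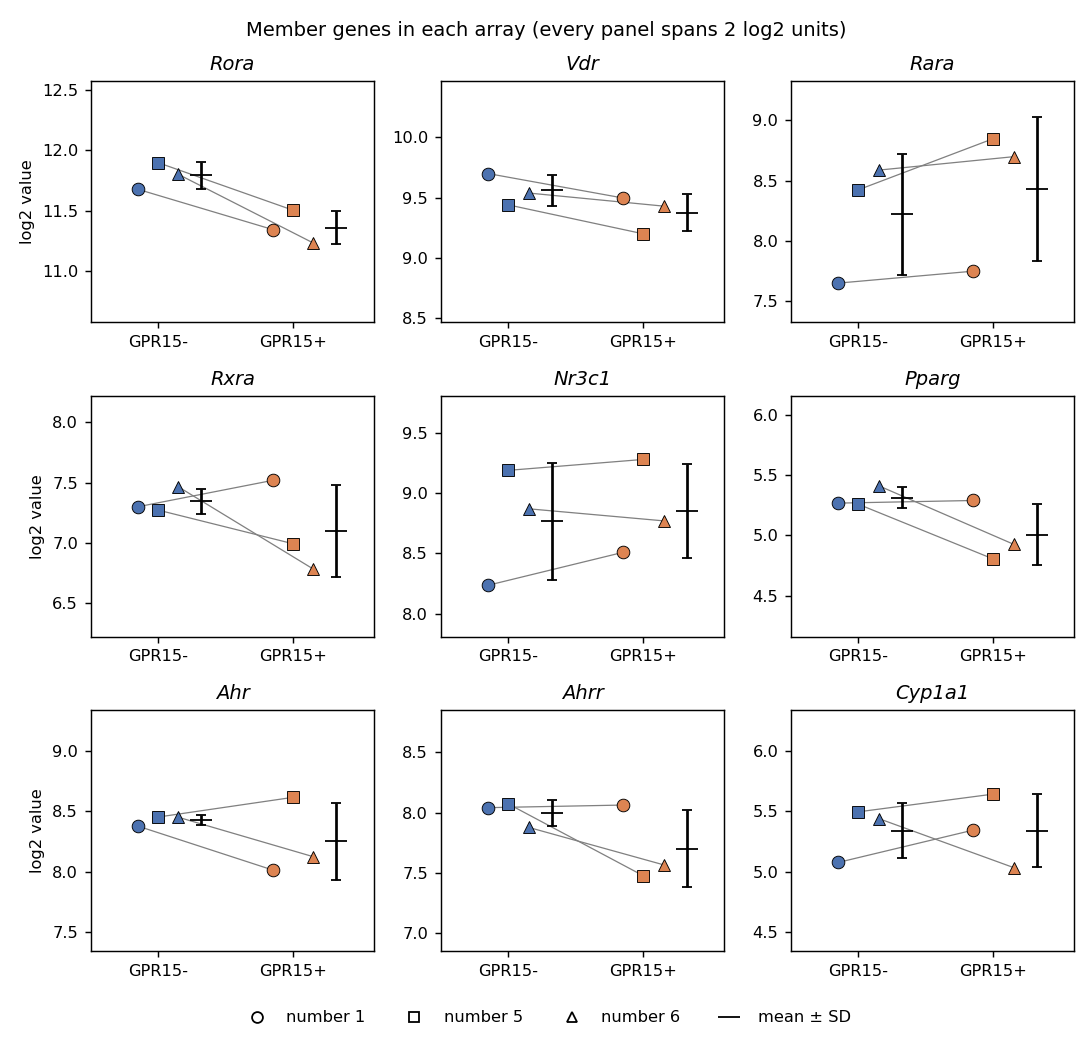
Log2 values of the 9 measured genes on each array, with GPR15- samples on the left and GPR15+ samples on the right of each panel. Symbols mark the numbers 1, 5 and 6, grey lines join equal numbers, and bars show mean ± SD (n = 3). In Rora the 3 arrays labelled GPR15+ lie below the 3 labelled GPR15-; in the other panels the fractions overlap.

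Sequence upstream of 3 of these genes is shown because Ahrr and Cyp1a1 are targets of AHR and Rora is the gene whose fractions did not overlap. The lines give the 250 bases before the RefSeq start in build GRCm38.p6, 5′ to 3′ on the gene's strand. Capitals mark GCGTG, or its reverse complement CACGC.
Ahrr, chr13:74292332-74292581, minus strand: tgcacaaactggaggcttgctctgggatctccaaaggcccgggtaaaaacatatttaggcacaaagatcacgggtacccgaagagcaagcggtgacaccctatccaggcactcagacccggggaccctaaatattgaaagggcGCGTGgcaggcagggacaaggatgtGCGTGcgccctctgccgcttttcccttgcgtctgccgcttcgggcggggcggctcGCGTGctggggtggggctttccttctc
Cyp1a1, chr9:57697363-57697612, plus strand: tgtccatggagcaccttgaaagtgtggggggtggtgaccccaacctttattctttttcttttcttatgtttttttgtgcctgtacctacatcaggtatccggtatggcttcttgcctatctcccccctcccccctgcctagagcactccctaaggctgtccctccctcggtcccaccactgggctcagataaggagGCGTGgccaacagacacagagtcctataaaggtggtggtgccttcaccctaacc
Rora, chr9:68653536-68653785, plus strand: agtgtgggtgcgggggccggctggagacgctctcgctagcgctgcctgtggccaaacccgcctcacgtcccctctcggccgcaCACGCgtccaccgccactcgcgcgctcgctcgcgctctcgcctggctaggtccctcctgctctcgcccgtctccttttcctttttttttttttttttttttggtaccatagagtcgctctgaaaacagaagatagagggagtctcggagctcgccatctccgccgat
The Ahrr window held 3 matches, all on the gene's strand, the Cyp1a1 window 1 on the gene's strand, and the Rora window 1 on the other strand. Of all 32851 windows of this length, 28.2% held GCGTG on either strand. The nuclear receptor half-site AGGTCA was in 0 of these 3 windows and in 14.0% of all windows. Windows were drawn for 8 of the 10 genes, 14 windows in all, of which 6 held GCGTG and 3 held AGGTCA. No sequence was used for Ahr and Nr3c1. A match describes letters only. Whether AHR binds at any marked stretch was not tested, and sequence further upstream than 250 bases was not searched.

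Rora encodes RORα, which takes part in the Th17 programme, in the circadian clock and in innate lymphoid cells, and which skin and gut Tregs also express. Rora read 11.7, 11.9 and 11.8 on the GPR15- arrays numbered 1, 5 and 6. On the GPR15+ arrays it read 11.3, 11.5 and 11.2. Every array labelled GPR15+ lay below every array labelled GPR15-. The means were 11.4 ± 0.14 (SD, n = 3) and 11.8 ± 0.11 (SD, n = 3), and the difference was -0.43 ± 0.16 (SE), or 1.35-fold lower, with a 95% interval from -0.81 to -0.05. Within the numbers 1, 5 and 6 it was -0.33, -0.39 and -0.57. It did not pass over all genes (limma adjusted p = 0.773; adjusted p = 0.371 with the replicate number as a block). With arrays weighted by their estimated quality Rora was called at -0.56 (limma adjusted p = 0.0308), but that estimate stopped before it converged, gave GPR15+ replicate 6 a weight of 6.56, and called 2174 genes in all. By the gene-by-gene method of weighting the adjusted p from limma was 0.125. In the other alternatives the adjusted p from limma was 0.191 or more.

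The 5 genes whose values over the 6 arrays were most like those of Rora were A1cf, Olfr1182, Spsb3, Tmtc2 and Zfp710. Their Pearson correlations lay between 0.978 and 0.994 over 6 arrays, and 131 of the 19494 genes had a correlation above 0.9. A1cf, an RNA-editing cofactor, read 5.18, 5.79 and 5.49 on the GPR15- arrays and 4.60, 4.97 and 4.31 on the GPR15+ arrays. With 6 arrays that share their normalization, such a likeness is a description only.

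Most genes tied to ROR factors lay above 0, where Rora lay below it. Of 13 listed clock and Th17 genes, 11 lay above 0 and 2 below, with a median of 0.16, where 40.8% of all genes lay above 0. None passed over all genes. Il1r1, the interleukin-1 receptor of Th17 cells, read 8.05, 8.02 and 7.56 on the GPR15- arrays and 9.20, 9.07 and 8.99 on the GPR15+ arrays. Its fractions were apart by 1.22 ± 0.19 (SE), or 2.32-fold (limma adjusted p = 0.615). Il23r, the interleukin-23 receptor subunit, read 9.31, 9.23 and 9.01 against 9.89, 9.91 and 9.60, a difference of 0.61 ± 0.17 (SE; limma adjusted p = 0.773). Both differences were already known from these arrays when the list was drawn up. The clock genes were closer to 0. Clock differed by 0.31, the clock repressor Nr1d2 by 0.34, its paralog Nr1d1 by -0.26 and Arntl, which encodes BMAL1, by -0.02. The cytokine genes Il17a and Il17f differed by 0.07 and 0.26. The list median was 0.06 when GPR15+ replicate 5 was left out and 0.25 when GPR15+ replicate 1 was.

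Most genes listed as markers of other cells also lay lower in samples labelled GPR15+. Of 8 listed genes of innate lymphoid and γδ T cells, which also carry Rora, 4 were measured, and none of these 4 is a γδ T cell receptor gene, so nothing is shown for γδ T cells. All 4 lay lower in samples labelled GPR15+, where 59.2% of all genes did. Their mean log2 level lay between 8.34 and 8.99 in samples labelled GPR15+ and between 9.11 and 9.62 in the others. Klrg1, an inhibitory receptor that effector Tregs also bear, differed by -0.77 ± 0.24 (SE). It was the 1 of 4 genes whose fractions did not overlap, against 13.3% of all genes. Kit, the stem cell factor receptor, differed by -1.19 ± 0.68 (SE) and spanned 8.53 to 10.4 in samples labelled GPR15+ and 9.65 to 11.7 in the others. Within the numbers 1, 5 and 6 the Kit difference was nearly constant, at -1.12, -1.30 and -1.16, and its SE was 0.15 once the number entered as a block (limma adjusted p = 0.773 without and 0.176 with the block). The transcription factor gene Id2 differed by -0.28, and Ncr1, a receptor of natural killer and innate lymphoid cells, by -0.35. Ncr1 was dim, at the 20.0 percentile of mean level, while Klrg1, Kit and Id2 lay at the 93.9, 97.5 and 99.1 percentile. Whether Klrg1, Kit and Id2 were read from Tregs or from other cells cannot be told in bulk samples. The list may therefore not stand for innate lymphoid cells. Epithelial markers lay lower for 12 of 14 genes, with mean levels of 6.20 to 6.48 against 6.49 to 6.67, and macrophage and dendritic cell markers for 12 of 13, at 5.82 to 6.28 against 6.19 to 6.35. The mean level of T cell markers spanned 10.2 to 10.6 in both fractions, with 8 of 14 genes above 0 and 6 below. The lowest was Ikzf2 at -0.52 (limma adjusted p = 0.773). Its fractions did not overlap, as in 3 of the 14 genes, against 13.3% of all genes. Of these lists, 6 of 14 epithelial, 4 of 13 macrophage and dendritic and 3 of 4 innate lymphoid genes were brighter than the median gene. Over all genes the median difference moved from -0.06 to -0.0014 with the intensity trend removed. The marker lists were not run under that setting. The part of these markers in the Rora difference was not tested. In bulk samples, fewer cells of a type and less RNA per cell cannot be told apart.

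**Figure D2:**
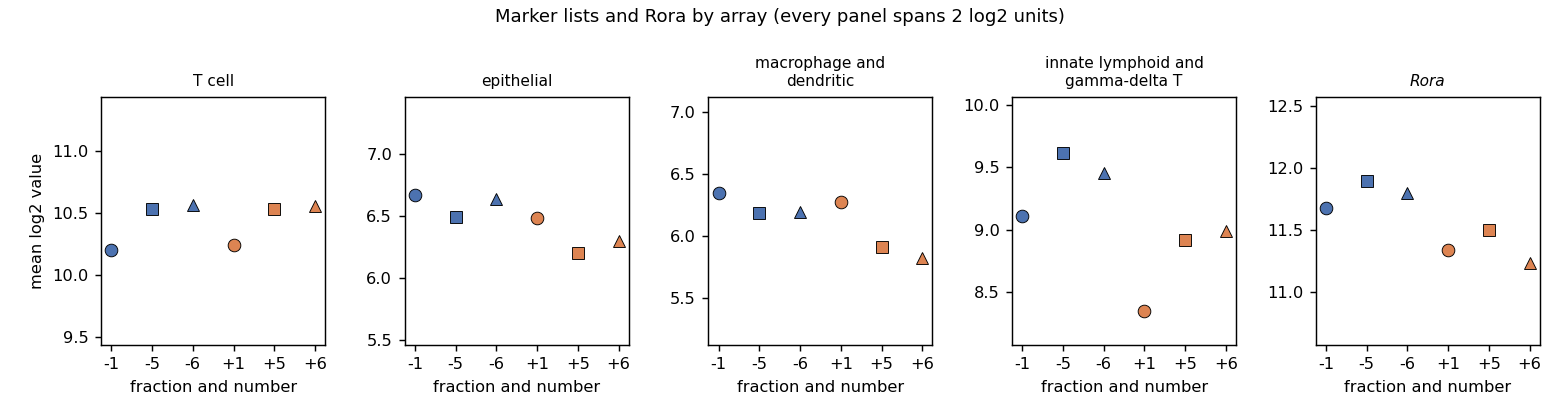
Mean log2 level of 4 marker lists and the log2 value of Rora on each array; blue marks samples labelled GPR15-, orange those labelled GPR15+, and the symbols mark the numbers. The 4 measured genes of the innate lymphoid list, which include no γδ T cell receptor gene, span 9.11 to 9.62 in the blue and 8.34 to 8.99 in the orange samples, and Rora also lies lower in all 3 orange samples.

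The vitamin receptors Vdr and Rara lay on opposite sides of 0. Vdr, the receptor for active vitamin D, read 9.70, 9.44 and 9.54 on the GPR15- arrays and 9.50, 9.20 and 9.43 on the GPR15+ arrays. Each GPR15+ array lay below the GPR15- array of its number, while the fractions overlapped. The difference was -0.18 ± 0.17 (SE), with a 95% interval from -0.57 to 0.21 (limma adjusted p = 0.833). With 1 array left out it spanned -0.24 to -0.10.

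Rara, the retinoic acid receptor of T cells, read 7.65, 8.42 and 8.59 on the GPR15- arrays and 7.75, 8.85 and 8.70 on the GPR15+ arrays. Both arrays numbered 1 were low, and the numbers were further apart than the fractions. The difference was 0.21 ± 0.35 (SE), with a 95% interval from -0.61 to 1.03 (limma adjusted p = 0.910). Without GPR15- replicate 1 it was -0.07, and without GPR15+ replicate 1 it was 0.55.

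Of 9 measured genes listed for vitamin D, 3 lay above and 6 below 0 with a median of -0.06, and none passed. Among these 9, 3 were brighter than the median gene. Cyp27b1, which makes the active hormone, differed by -0.43 ± 0.18 (SE, limma adjusted p = 0.773). It was the 1 of 9 genes whose fractions did not overlap, against 13.3% of all genes. Cyp24a1, which degrades the hormone and is a classic VDR target, differed by -0.06. The antimicrobial peptide gene Camp differed by -0.33, the sodium-calcium exchanger Slc8a1 by -0.36 and the vitamin D 25-hydroxylase Cyp2r1 by -0.14. Slc8a1 and Cyp2r1 were dim, at the 12.4 and 19.4 percentile of mean level. Leaving out GPR15+ replicate 1 gave a median of -0.17, and leaving out GPR15+ replicate 5 gave 0.005. The sign of this median also turned with each rescaling of the arrays, at 0.01 after centring, 0.02 after quantile normalization and 0.04 with the intensity trend removed.

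Of 15 measured retinoid genes, 3 lay above and 12 below 0, where 59.2% of all genes lay below 0. The list median was -0.24 against -0.06 for all genes, and none of the 15 passed. Of these genes, 7 were brighter than the median gene. Aldh1a2 and Aldh1a3, which make retinoic acid, had the 2 smallest p in this list, and Aldh1a1, an enzyme of the same function, differed by -0.17. Aldh1a2 read 5.04, 4.59 and 5.22 on the GPR15- arrays and 4.28, 4.58 and 4.20 on the GPR15+ arrays, a difference of -0.60 ± 0.21 (SE; limma adjusted p = 0.773). In number 5 the gap was only -0.02, and the row was dim, at the 11.8 percentile of mean level. Aldh1a3 read 7.04, 6.95 and 7.02 against 6.82, 6.31 and 6.54, a difference of -0.45 ± 0.18 (SE). The retinoic acid-degrading enzymes Cyp26c1 and Cyp26a1 differed by -0.35 and -0.24. Cyp26c1, Cyp26a1 and Aldh1a1 were dim too, at the 17.8, 23.8 and 14.2 percentile. The median moved to -0.11 when the intensity trend of the arrays was removed and to -0.13 after quantile normalization. It was -0.12 without GPR15- replicate 6.

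Rxra, Pparg and Ahrr shared a shape over the 6 arrays. Rxra, the shared partner receptor, read 7.30, 7.27 and 7.47 on the GPR15- arrays and 7.52, 6.99 and 6.78 on the GPR15+ arrays. GPR15+ replicate 1 was the highest of all 6, and the other 2 GPR15+ arrays were the lowest. The difference was -0.25 ± 0.22 (SE), with a 95% interval from -0.75 to 0.26 (limma adjusted p = 0.828). It was -0.46 when GPR15+ replicate 1 was left out and -0.09 when GPR15+ replicate 6 was. With the array weights that did not converge Rxra was called (limma adjusted p = 0.0388), and by the gene-by-gene method it was not (limma adjusted p = 0.147).

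Pparg, the fatty acid sensor that marks Tregs of fat tissue, read 5.27, 5.26 and 5.41 on the GPR15- arrays. On the GPR15+ arrays it read 5.29, 4.80 and 4.93. The GPR15+ arrays numbered 5 and 6 lay below all others, and number 1 lay among the GPR15- arrays. The difference was -0.31 ± 0.18 (SE), with a 95% interval from -0.73 to 0.12 (limma adjusted p = 0.773). Pparg was dim, at the 19.8 percentile of mean level, and no detection calls were used. The difference was -0.18 with the intensity trend removed and -0.45 without GPR15+ replicate 1.

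Ahrr encodes the repressor that AHR induces and that competes with it for ARNT. It read 8.04, 8.07 and 7.88 on the GPR15- arrays and 8.06, 7.48 and 7.57 on the GPR15+ arrays. Again the GPR15+ arrays numbered 5 and 6 lay below all others. The difference was -0.30 ± 0.20 (SE), with a 95% interval from -0.76 to 0.17 (limma adjusted p = 0.792). Leaving out GPR15+ replicate 1 gave -0.48, and leaving out GPR15+ replicate 5 gave -0.18. Over the 6 arrays, which share their normalization, the Pearson correlation was 0.88 between Rxra and Pparg, 0.88 between Pparg and Ahrr and 0.81 between Rxra and Ahrr. Pairs outside this group were as strong, at 0.84 between Rara and Nr3c1 and -0.84 between Vdr and Nr3c1. Like Rxra, Pparg and Ahrr, the macrophage and dendritic cell marker list was lowest in the GPR15+ samples numbered 5 and 6. It lay at 5.92 and 5.82 there, against 6.28 in that numbered 1. The epithelial list was lowest there too, at 6.20 and 6.30 against 6.48, and the same 2 arrays had the lowest medians over all genes, at 6.49 and 6.51. The part of these markers and medians in the pattern was not tested.

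**Figure D3:**
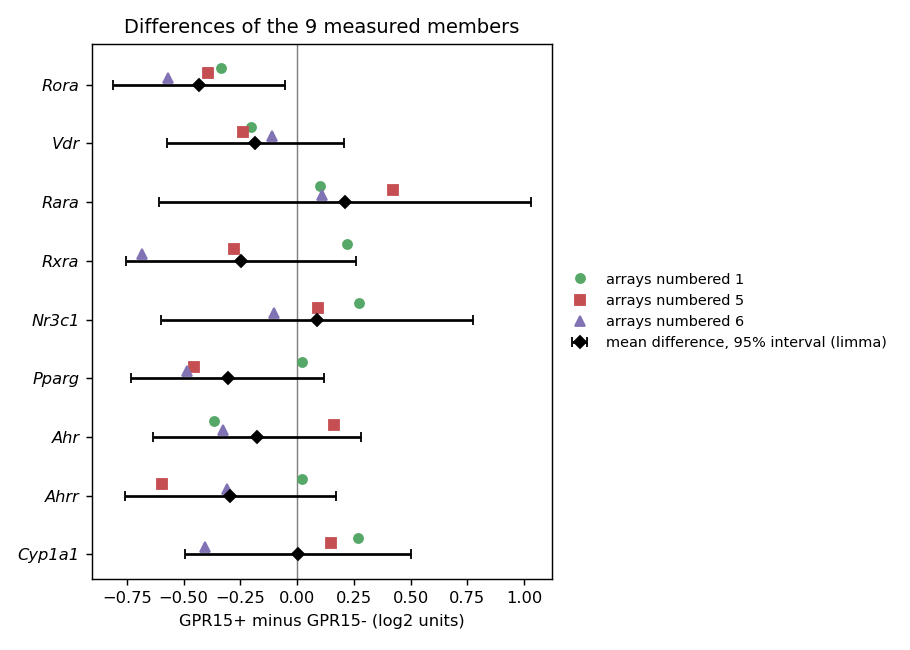
Differences of the 9 measured genes, with values of the GPR15- samples subtracted from those of the GPR15+ samples (log2 units). Diamonds with bars are means with 95% intervals from limma, and the coloured symbols are the differences within the numbers 1, 5 and 6. The interval of Rora runs from -0.81 to -0.05, and the other 8 intervals include 0.

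Ahr lay close together in the GPR15- samples and apart in the GPR15+ samples. It read 8.38, 8.45 and 8.45 on the GPR15- arrays and 8.01, 8.62 and 8.12 on the GPR15+ arrays. The GPR15+ array numbered 5 was the highest of the 6 and the other 2 were the lowest. The difference was -0.18 ± 0.20 (SE), with a 95% interval from -0.64 to 0.28 (limma adjusted p = 0.866). It spanned -0.36 without GPR15+ replicate 5 to -0.06 without GPR15+ replicate 1.

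Cyp1a1, the xenobiotic-metabolising enzyme that is the textbook target of AHR, read 5.08, 5.50 and 5.44 against 5.34, 5.64 and 5.03. It lay higher in numbers 1 and 5, by 0.27 and 0.15, and lower in number 6, by -0.41. The difference was 0.00 ± 0.21 (SE), with a 95% interval from -0.50 to 0.50 (limma adjusted p = 0.999). Without GPR15- replicate 1 it was -0.13, and without GPR15+ replicate 6 it was 0.16. Cyp1a1 was dim, at the 23.2 percentile of mean level. The 2 targets whose upstream sequence is printed above thus differed by -0.30 and 0.00, and the difference between them was not tested.

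Of 13 other genes of the AHR pathway, 4 lay above and 9 below 0, with a median of -0.04, and none passed. Among these 13, 4 were brighter than the median gene. Arnt, the DNA-binding partner, differed by 0.19, and its paralog Arnt2 by 0.55 ± 0.29 (SE; limma adjusted p = 0.773). Arnt2 read 8.31, 8.35 and 7.86 on the GPR15- arrays and 8.22, 9.28 and 8.66 on the GPR15+ arrays, higher in numbers 5 and 6 and not in 1. The co-chaperone Ptges3 differed by 0.41 at a dim level. Of the targets, Tiparp, a feedback ADP-ribosyltransferase, differed by -0.03, Cyp1b1 by -0.18, Cyp1a2 by -0.21 and Nqo1 by 0.06. Lgals3, a galectin, differed by -0.18. Without both arrays numbered 1 the median of this list was 0.11, and after centring of the arrays it was 0.03. Leaving out GPR15- replicate 5 gave -0.12, and leaving out replicate 1 or 6 of the GPR15+ samples gave -0.11 or -0.10.

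Nr3c1 encodes the glucocorticoid receptor, through which corticosteroids restrain T cells. It read 8.23, 9.19 and 8.87 on the GPR15- arrays and 8.51, 9.28 and 8.77 on the GPR15+ arrays. The order of the numbers was the same in both fractions, with number 1 low and number 5 high. The difference was 0.09 ± 0.30 (SE), with a 95% interval from -0.60 to 0.78 (limma adjusted p = 0.954). Its sign turned after quantile normalization, at -0.03, and without GPR15- replicate 1, at -0.18. Of 17 glucocorticoid genes, 9 lay above and 8 below 0 with a median of 0.04, and none passed. The glucocorticoid-induced Tsc22d3, which encodes GILZ, differed by 0.33, and the chaperone gene Fkbp5 by 0.31. Nfkbia, the NF-κB inhibitor, differed by -0.27 and Zbtb16, which encodes PLZF, by -0.29, both without overlap. They were the 2 of 17 genes without overlap, against 13.3% of all genes. The steroid-converting enzymes Hsd11b1 and Hsd11b2 differed by -0.38 and -0.29. The list median turned to -0.02 after quantile normalization and to -0.03 without GPR15+ replicate 6.

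Lipid genes that PPARs control lay on both sides of 0. Of 12 measured PPAR target genes, 5 lay above and 7 below 0 with a median of -0.10, and none passed. Among these 12, 5 were brighter than the median gene. Plin2, which coats lipid droplets, read 7.98, 8.14 and 8.23 on the GPR15- arrays and 9.10, 9.52 and 8.82 on the GPR15+ arrays. Every array labelled GPR15+ lay above every array labelled GPR15-. The difference was 1.03 ± 0.21 (SE), or 2.04-fold (limma adjusted p = 0.773). Fractions did not overlap in 3 of the 12 genes, against 13.3% of all genes. The mitochondrial fatty acid dehydrogenases Acadl and Acadm differed by 0.41 and 0.50, and the fatty acid transporter Slc27a2 by -0.51. Slc27a2 was dim, at the 11.0 percentile of mean level. The scavenger receptor Cd36 was at the 1.04 percentile of mean level and differed by 0.03. The median was 0.13 without the dimmest 40% of genes. It was 0.15 with the array weights that did not converge and 0.07 with gene-by-gene weights. Without GPR15+ replicate 5 it was 0.02.

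Of 12 measured LXR target genes, 6 lay above and 6 below 0, with a median of -0.01, and none passed. Among these 12, 4 were brighter than the median gene. Apoe, a lipoprotein gene of macrophages, read 8.18, 8.15 and 8.25 against 8.08, 7.50 and 7.34, a difference of -0.55 ± 0.22 (SE; limma adjusted p = 0.773) without overlap. It was lowest in the GPR15+ samples numbered 5 and 6, as the macrophage list was. Of the 12 LXR target genes, 2 did not overlap between fractions, against 13.3% of all genes. The cholesterol exporters Abca1 and Abcg1 differed by -0.33 and 0.22. The oxysterol-making Ch25h differed by -0.30 and the phospholipid enzyme Lpcat3 by 0.59. Nr1h3, the paralog of Nr1h2, differed by -0.09 and lay at the 21.2 percentile of mean level. Without GPR15+ replicate 6 the median was -0.15, and with centring, quantile normalization or the trend removed it was 0.06, 0.04 and 0.06.

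**Figure D4:**
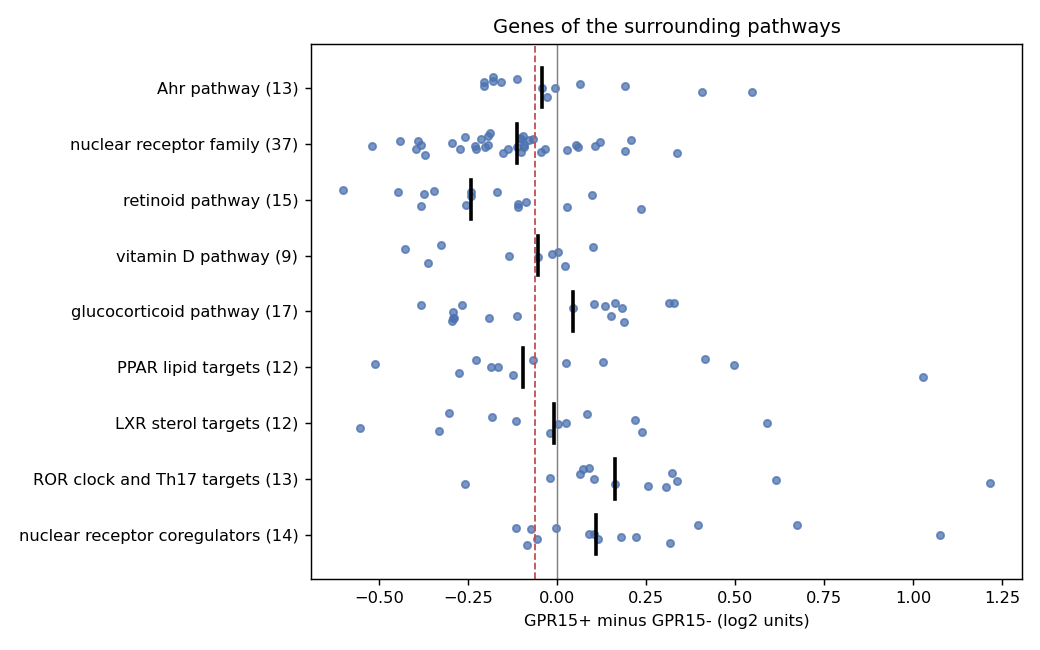
Differences of single genes (dots) in 9 lists around these receptors, GPR15- samples subtracted from GPR15+ samples (log2 units); black bars are list medians, the dashed line is the median of all genes at -0.06, and the number of measured genes is in brackets. List medians run from -0.24 in the retinoid list to 0.16 in the ROR list, and none of the genes passed over all genes. Nr1d1, Nr1d2 and Cyp27a1 each appear in more than a single list.

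Among 37 other nuclear receptor genes measured, 8 lay above and 29 below 0, where 59.2% of all genes lay below 0. Their median was -0.11, with a range from -0.52 to 0.34. None passed, and 2 had an unadjusted p under 0.05, both below 0, where 3.44% of all genes did. These were Nr5a1, a steroidogenic factor, at -0.52 ± 0.18 (SE), and the retinoic acid receptor Rarb at -0.37 ± 0.16 (SE). Ppara and Rxrg differed by -0.40 and -0.38. Of the 37 genes, 16 were brighter than the median gene. Fractions did not overlap in 4 of the 37, against 13.3% of all genes. Nr1d1 and Nr1d2 were in both this list and the ROR list. Of other receptors, the RXR paralog Rxrb differed by -0.27, the retinoic acid receptor Rarg by -0.11 and the thyroid hormone receptor Thra by -0.19. The list median was 0.03 within number 1 and -0.21 within both numbers 5 and 6. It was -0.04 after centring of the arrays and -0.06 with the intensity trend removed, and further from 0 at -0.23 without both arrays numbered 1, -0.23 with either array weighting and -0.17 without GPR15+ replicate 1.

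Of 14 measured coregulators, 9 lay above and 5 below 0, with a median of 0.11, and none passed. Tbl1xr1, a subunit of the NCoR corepressor complex, read 6.38, 6.62 and 7.31 on the GPR15- arrays and 7.87, 8.04 and 7.63 on the GPR15+ arrays. The fractions did not overlap, and the difference was 1.07 ± 0.26 (SE, limma adjusted p = 0.773). Such non-overlap held for 2 of the 14 genes, against 13.3% of all genes. Nrip1, the corepressor RIP140, differed by 0.39, the acetyltransferase Ep300 by 0.32 and the coactivator Ncoa1 by 0.67 ± 0.53 (SE). Within the numbers 1, 5 and 6 Ncoa1 differed by 0.90, 0.69 and 0.43 (limma adjusted p = 0.809 without the block and 0.293 with it). Leaving out GPR15+ replicate 1 moved the list median to 0.29. Leaving out GPR15- replicate 1 moved it to 0.05, and leaving out GPR15+ replicate 5 to 0.01. Within number 1 it was 0.03.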

How the data were processed

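Gene expression of 6 mouse Treg samples, 3 per fraction, was measured on 1-colour Affymetrix arrays. The values are log2 intensities per probe set, deposited by the authors after RMA, per the submitters' processing notes; software version, annotation build and detection calls are not given in the sources used here. Of 22142 rows, 19527 had 1 gene symbol, 0 several and 2615 none, and the last were not used. The row with the highest mean was taken for 33 genes with several, which left 19494 genes. Groups came from the sample titles. The test was limma 3.58.1 (R 4.3.3; lmFit, then eBayes) without a block. P-values were adjusted over all genes by Benjamini-Hochberg, and 0.05 was the threshold; intervals are limma's at 95%. The fit was tested on simulated data. An exact 2-sided permutation test of 3 arrays against 3 cannot go below 0.1, and the number of arrays limits the precision.

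The genes and lists were chosen with earlier results of these data known, and lists were described by counts and medians without a set test. Named were the 9 measured genes, Gpr15, Ptprc and Cd4, the 4 genes with the smallest p of each of the 9 pathway lists and the 5 genes most correlated with Rora; others were named after their values were seen. Deviations from group means correlated at 0.567, 0.381 and 0.319 between samples numbered 1, 5 and 6. Each exceeds 0.1, and equal numbers were therefore paired for the within-number differences and in the replicate-block alternative. The main fit did not pair them, and the labels do not say what a number is. Unequal numbers 5 and 6 correlated too (0.315 and 0.213 in the 2 combinations), while number 1 correlated below 0 with both, so the pairing of 5 and 6 is poorly supported. Printed SEs, intervals and p-values are without the block unless said. A percentile of mean level ranks a row among all genes on these arrays; probes differ in brightness, so it orders no gene's abundance. The closing section names the alternatives.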

Additional observations from a re-analysis of the deposited data

How the results depend on the processing

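The settings tried were leaving out the dimmest 40% of genes, centring arrays on their medians, quantile normalization, removing the intensity trend, a trended variance prior, array weights, the replicate number as a block, averaging the rows of a gene, leaving out each array in turn, and leaving out both arrays numbered 1; gene-by-gene array weights were added after seeing the data. Under all of them that gave a value, Rora, Vdr, Rxra, Pparg, Ahr and Ahrr stayed below 0; Pparg and Cyp1a1 gave none without the dimmest genes. Nr3c1 turned to -0.030 with quantile normalization, -0.085 with array weights, -0.0030 with gene-by-gene weights and -0.0047 without both arrays numbered 1, and spanned -0.18 to 0.30 with 1 array left out. Cyp1a1 turned to -0.31 and -0.19 with the 2 weightings and to -0.13 without both arrays numbered 1, and spanned -0.15 to 0.16 with 1 array left out. Rara spanned -0.074 to 0.55, and without GPR15- replicate 1 all 9 genes lay below 0.

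With array weights 2174 genes and 2 of the 9 passed the adjusted threshold, and 2 genes and 0 of the 9 with gene-by-gene weights; no other setting called a gene. The number at an unadjusted p under 0.05 was 713 without the dimmest genes, 6534 and 4340 with the 2 weightings, 2411 with the replicate block, 4101 without both arrays numbered 1, and 668 to 4351 with 1 array left out. The replicate block changed no call. The median of all genes was -0.016 without the dimmest genes, 0.0066 with centring, -0.023 with quantile normalization, -0.0014 with the trend removed, and -0.11 to -0.044 with 1 array left out.

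Of the list medians, the retinoid one was -0.13 with quantile normalization, -0.11 with the trend removed and -0.32 to -0.12 with 1 array left out. The ROR one was 0.23 with centring, 0.22 without both arrays numbered 1 and 0.061 to 0.25 with 1 array left out. The vitamin D one was -0.22 without both arrays numbered 1 and -0.17 to 0.0047 with 1 array left out. The PPAR one was 0.13 without the dimmest genes and 0.15 with array weights, and the AHR one 0.11 without both arrays numbered 1 and -0.12 to -0.065 with 1 array left out. With 1 array left out the LXR median spanned -0.15 to 0.0082 and the coregulator median 0.011 to 0.29. The cause was not tested.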
